A study of Canis lupus familiaris with 4 samples.

Results

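The transfectants E22A and E22B of MDCK, an epithelial line from canine kidney, were set against each other through the control RNA that both were hybridised with. All 4 arrays of the series took part, 2 for E22A and 2 for E22B. Each array carried RNA of 1 transfectant in one dye and RNA of the MDCK-CMV control in the other. MDCK-CMV is taken, from its name, as cells with the empty CMV expression vector. E22A and E22B are taken here, from knowledge of the study, as the A and B isoforms of the transcription factor E2-2. The design text describes the arrays of a transfectant as a dye swap, so each transfectant is 1 biological sample and may be 1 clone. A difference between them can therefore come from the isoform or from the clone, which cannot be told apart. Of the 13824 clones printed, 10268 had a value on all 4 arrays, and these gave 8657 features, of which 4892 carry a gene symbol.

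E2-2, encoded by TCF4, is a class I basic helix-loop-helix factor. Such factors bind E-box motifs as dimers, with each other or with tissue-specific partners, and Id proteins take them out of action by forming dimers that do not bind DNA. In epithelial cells E2-2 is known as a repressor of the E-cadherin gene CDH1, and MDCK cells are a standard model of the change from epithelial to mesenchymal form. The array holds human cDNA clones and was read with canine RNA, so each ratio also depends on hybridisation across species.

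Every value below is a log2 ratio of transfectant and control on 1 array, and every difference is the mean over the E22A arrays minus the mean over the E22B arrays. Neither the dye in the numerator nor the base of the logarithm is stated in the sources at hand, so every fold rests on base 2. Values are taken as log2 of Cy5 over Cy3, and arrays with the transfectant in Cy3 are turned. "Higher in E22A" below means a larger value in this sense, and it would mean less RNA in E22A if Cy3 were the numerator. The choice made here places CDH1 above 0 in E22B, which opposes the repression of CDH1 known for E2-2, so no direction below is settled in terms of RNA.

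The dye of E22A array 1 is also in doubt. Its title names Cy5 and spells the transfectant EE2A, whereas its channel labels put E22A in Cy3. The other E22A array carried the transfectant in Cy3 by both sources. E22B was in Cy3 on array 1 and in Cy5 on array 2 by both. With the title's dye for array 1, Pearson's r between the E22A arrays was -0.37 across features, and with the labels' dye it was 0.37. Between the E22B arrays it was 0.41. These are correlations across genes, which are not independent replicates. The channel labels give no exchange of dyes for E22A, although the design text describes one for each transfectant. E22A has no settled direction, and each result is given in both readings. The readings differ only in the sign of E22A array 1. In the channel-label reading both E22A arrays are in Cy3, so a dye effect of a gene does not cancel in the E22A mean but does in the E22B mean.

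With 1 sample per transfectant there is no test. A feature was counted as different where the means were at least 1 log2 unit (2-fold) apart and the arrays of the transfectants did not overlap. By the titles 146 of 8657 features met this rule (1.69%), 34 of them higher in E22A (0.393%) and 112 lower (1.29%). In the channel-label reading 130 did (1.5%), 36 higher (0.416%) and 94 lower (1.09%). Both readings shared 49 features (0.566%), 13 higher in E22A (0.15%) and 36 lower (0.416%). Most of the transcripts lay close together: 88.0% of features differed by less than 0.5 by the titles and 91.8% in the channel-label reading, and the median difference was -0.01 in both.

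**Figure D1:**
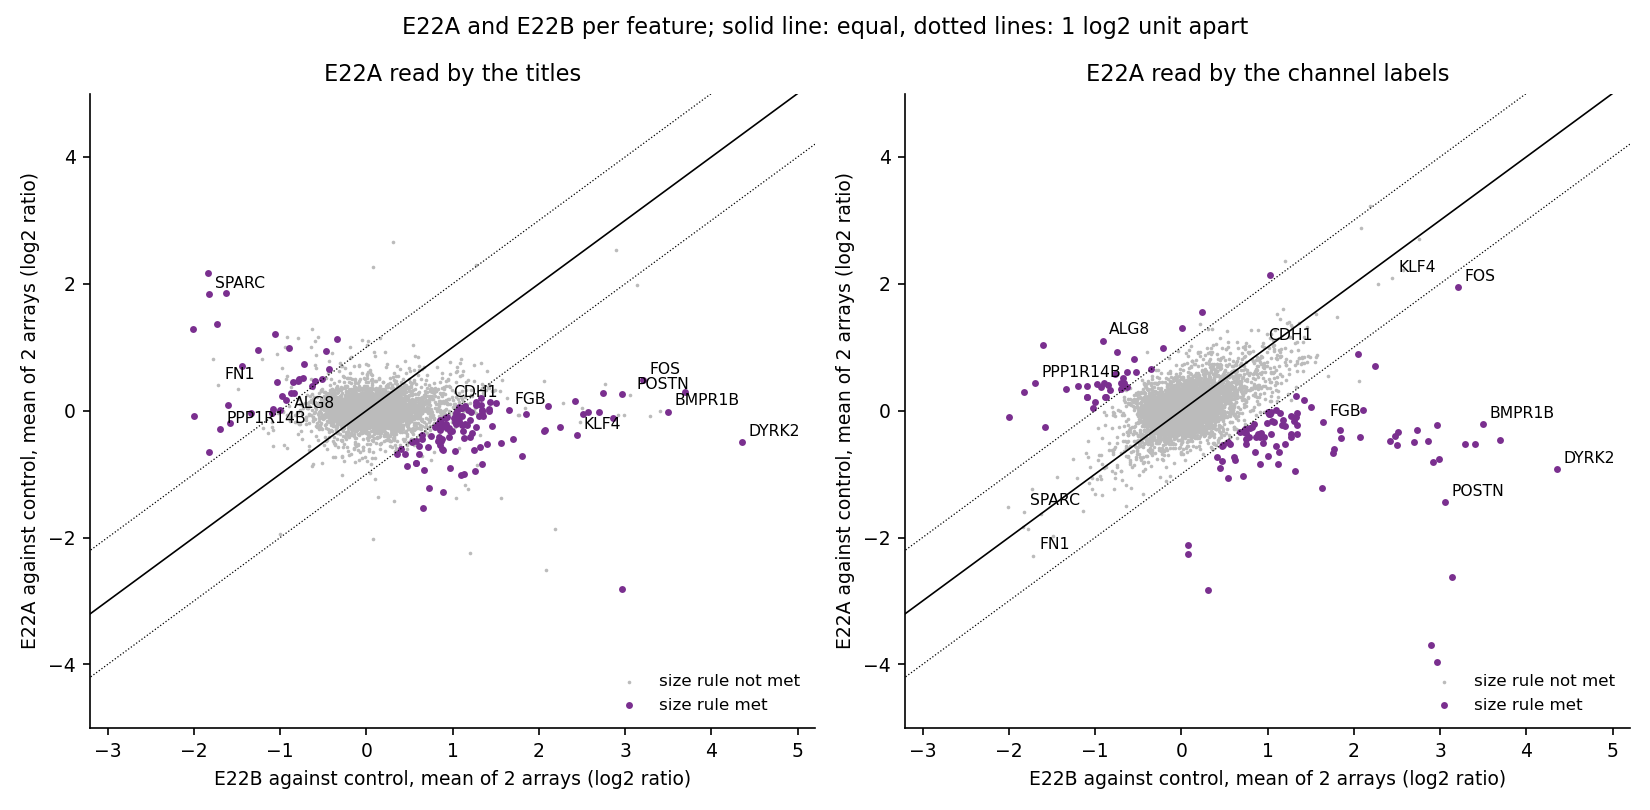
Mean log2 ratio to the control in E22A (vertical axis) against E22B (horizontal axis) for 8657 features, with the title reading and the channel-label reading in separate panels; marked points met the size rule. The marked points were 146 by the titles and 130 in the channel-label reading, and in both panels more of them were lower in E22A than higher.

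The differences that hold in either reading comprised 17 named genes, 3 higher and 14 lower in E22A, and 32 features without a single symbol. For 10 of the 17 both E22A arrays lay within 0.5 of 0. These 10 were AGO2, BMPR1B, CCNB3, DLEU2, FGB, KISS1R, LTBP4, SMC2, TCAIM and TOR1AIP1. To count in both readings, both E22B arrays must lie beyond E22A array 1 taken with either sign. The selection itself therefore asks for a departure of E22B from the control and favours genes with E22A near 0.

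The 3 genes higher in E22A encode a phosphatase inhibitor, a receptor and a matrix protein. PPP1R14B, an inhibitor of protein phosphatase 1, was -2.07 and -1.32 on the E22B arrays. On the E22A arrays it was 0.14 on array 2 and 0.72 in size on array 1, positive in the channel-label reading and negative by the titles. E22B lay below E22A on every array, and the difference was 2.12 in the channel-label reading and 1.41 by the titles. A second PPP1R14B clone, measured on 3 arrays, gave 0.55 and 0.45 in the same order, the same side at a smaller size.

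KISS1R, the receptor for kisspeptins, was -1.19 and -0.999 in E22B. In E22A it was 0.18 on array 2 and 0.26 in size on array 1. The groups of arrays did not overlap, with differences of 1.32 in the channel-label reading and 1.05 by the titles. LTBP4, which binds latent TGF-beta in the extracellular matrix, was -0.99 and -1.01 in E22B and 0.13 and 0.14 (channel labels) in E22A. Its difference was 1.14 in the channel-label reading and 1.01 by the titles, just inside the limit. The SD over its E22B arrays was 0.01. Without any 1 array, in either reading, the differences ran from 0.98 to 2.50 for PPP1R14B, from 0.83 to 1.41 for KISS1R and from 0.87 to 1.15 for LTBP4. The lowest of these values came by the titles without E22A array 2.

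Among the 14 genes lower in E22A, FGB and DYRK2 kept at least 1 log2 unit without any 1 array in both readings. FGB, the beta chain of fibrinogen, was 1.03 and 2.27 in E22B. In E22A it was -0.17 on array 2 and 0.18 in size on array 1, close to the control. Its difference was -1.83 in the channel-label reading and -1.64 by the titles, and it ran from -2.44 to -1.03 without any 1 array. DYRK2, a protein kinase with roles in the cell cycle and apoptosis, was 1.51 and 7.22 in E22B. In E22A it was -1.42 on array 2 and 0.43 in size on array 1. Its difference of -5.29 in the channel-label reading and -4.85 by the titles was the largest in size among the named genes. It ran from -8.14 to -1.996 without any 1 array, and E22B array 2 lay far above the other arrays. The duplicate spots of DYRK2 on E22B array 2 differed by 0.01.

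SLC25A36, a mitochondrial carrier of pyrimidine nucleotides, was 0.97 and 1.43 in E22B. In E22A it was -0.67 on array 2 and 0.38 in size on array 1. The difference was -1.73 in the channel-label reading and -1.35 by the titles, and the E22B arrays stood above both E22A arrays in each reading. PUM2, an RNA-binding protein that represses translation, was 0.97 and 3.87 in E22B. In E22A it was -0.33 on array 2 and 0.63 in size on array 1. Its difference was -2.90 in the channel-label reading and -2.27 by the titles, and E22B array 2 lay far above the other arrays. Without that array PUM2 was -0.82 by the titles, and without E22A array 2 SLC25A36 was -0.83. On E22A array 1 FGB, DYRK2, SLC25A36 and PUM2 were all below 0 by the channel labels and above 0 by the titles.

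FOS, the immediate early transcription factor, was the gene of this set with a large value in both transfectants. It was 3.11 and 3.31 in E22B, and in E22A 2.43 on array 2 and 1.47 in size on array 1. The difference was -1.26 by the channel labels, where all 4 arrays were above 0, and -2.73 by the titles, where E22A array 1 was negative. The 2 E22B arrays differed by less than the E22A arrays did. A second FOS clone with a value on 3 arrays gave 0.33 and 0.08, on the other side of 0, so the FOS difference rests on 1 clone. Without E22A array 1 it was -0.78.

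A further group stood out on E22B array 2 above all. BMPR1B, a type I receptor for bone morphogenetic proteins, was 6.52 there and 0.47 on E22B array 1, with -0.23 on E22A array 2. TOR1AIP1, a lamina-associated protein of the inner nuclear membrane, was 4.88 against 1.04 on the E22B arrays and 0.03 on E22A array 2. DNA2, a nuclease and helicase of DNA replication, was 4.77 against 0.70, with -0.02 on E22A array 2. Without E22B array 2 the title differences were -0.78 for TOR1AIP1, -0.49 for BMPR1B and -0.42 for DNA2, all under the limit. In all 14 genes E22B array 2 exceeded E22B array 1, and in 11 by at least 1 log2 unit. The duplicate spots on that array differed by 2.09 for BMPR1B and 2.69 for TOR1AIP1, where 95% of clones differed by less than 0.13.

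The remaining genes lower in E22A in both readings had smaller differences, given here by the titles and then in the channel-label reading. SMC2, a condensin subunit, gave -1.43 and -1.57. CCNB3, a B-type cyclin, gave -1.29 and -1.26. AGO2, the small-RNA-guided slicer, gave -1.24 and -1.10. These 3 were followed by TCAIM (-1.15 and -1.25), ZNF346 (-1.12 and -1.28) and the long non-coding RNA gene DLEU2 (-1.06 and -1.10). Another DLEU2 clone, with 1 array for each transfectant, gave 0.13 and 0.30, on the other side of 0. Without E22B array 2 these 6 genes were under the limit in both readings, from -0.88 for AGO2 to -0.30 for DLEU2 by the titles.

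**Figure D2:**
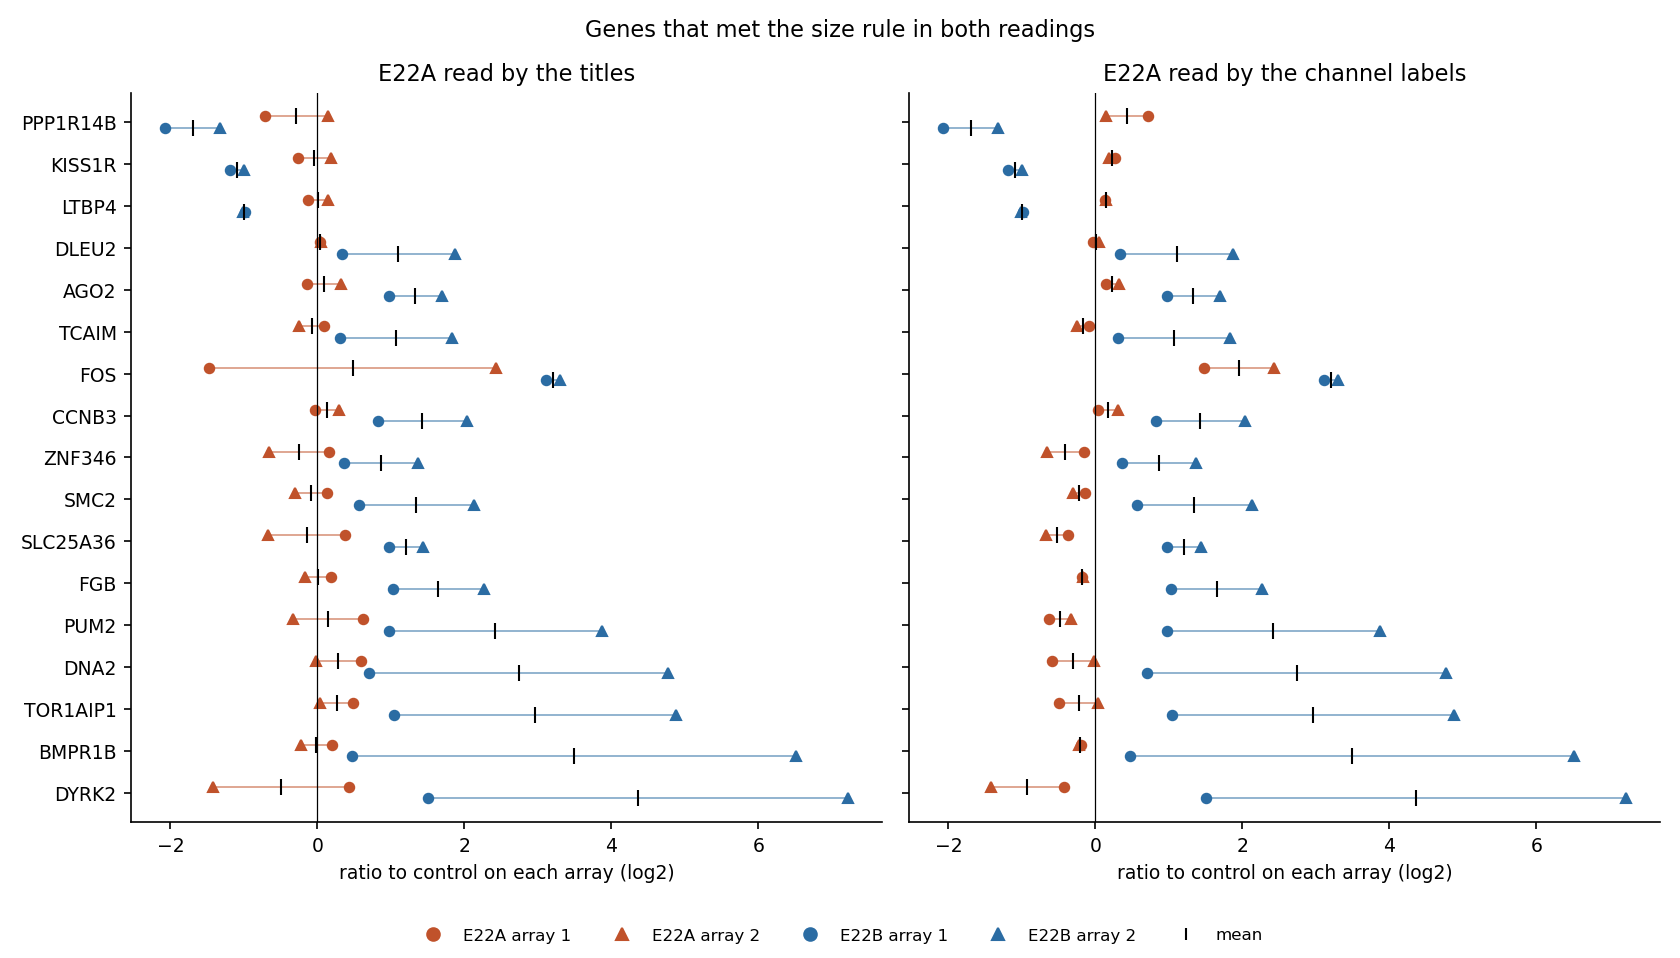
Log2 ratio to the control on each of the 4 arrays for the 17 genes that met the size rule in both readings, with 1 panel per reading of E22A array 1 and the means as ticks. PPP1R14B, KISS1R and LTBP4 have both E22B arrays below the E22A arrays, and the other 14 genes have both above; E22B array 2 is the farthest point for BMPR1B, DYRK2, TOR1AIP1, DNA2 and PUM2.

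Since E22B was in Cy3 on array 1 only, the arrays with the transfectant in Cy3 compare the transfectants at a matched dye. By the titles this sets E22A array 2 against E22B array 1, and 339 features were at least 2-fold apart (3.92%), 151 higher in E22A (1.74%) and 188 lower (2.17%). By the channel labels it sets both E22A arrays against E22B array 1, with 148 features counted (1.71%), 65 higher (0.751%) and 83 lower (0.959%). Of the 146 features by the titles 88 were counted again, and of the 130 by the channel labels 69. The matched-dye arrays are part of the arrays behind those counts, so being counted again is not an independent check. The split by sign differed: by the channel labels 30 of 36 higher features were counted again, but 39 of 94 lower ones. At the matched dye PPP1R14B differed by 2.50 in the channel-label reading and 2.21 by the titles, KISS1R by 1.41 and 1.37, and LTBP4 by 1.13 in both.

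Of the 14 genes lower in E22A, 5 kept at least 1 log2 unit at the matched dye in both readings. They were DYRK2 (-2.43 in the channel-label reading and -2.92 by the titles), SLC25A36 (-1.50 and -1.64), PUM2 (-1.45 and -1.30), TOR1AIP1 (-1.27 and -1.004) and FGB (-1.21 and -1.20). BMPR1B, at -3.71 over all arrays by the channel labels, was -0.69 at the matched dye, which in that reading is the comparison without E22B array 2. DNA2 went from -3.04 to -1.01 in the same way.

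**Figure D3:**
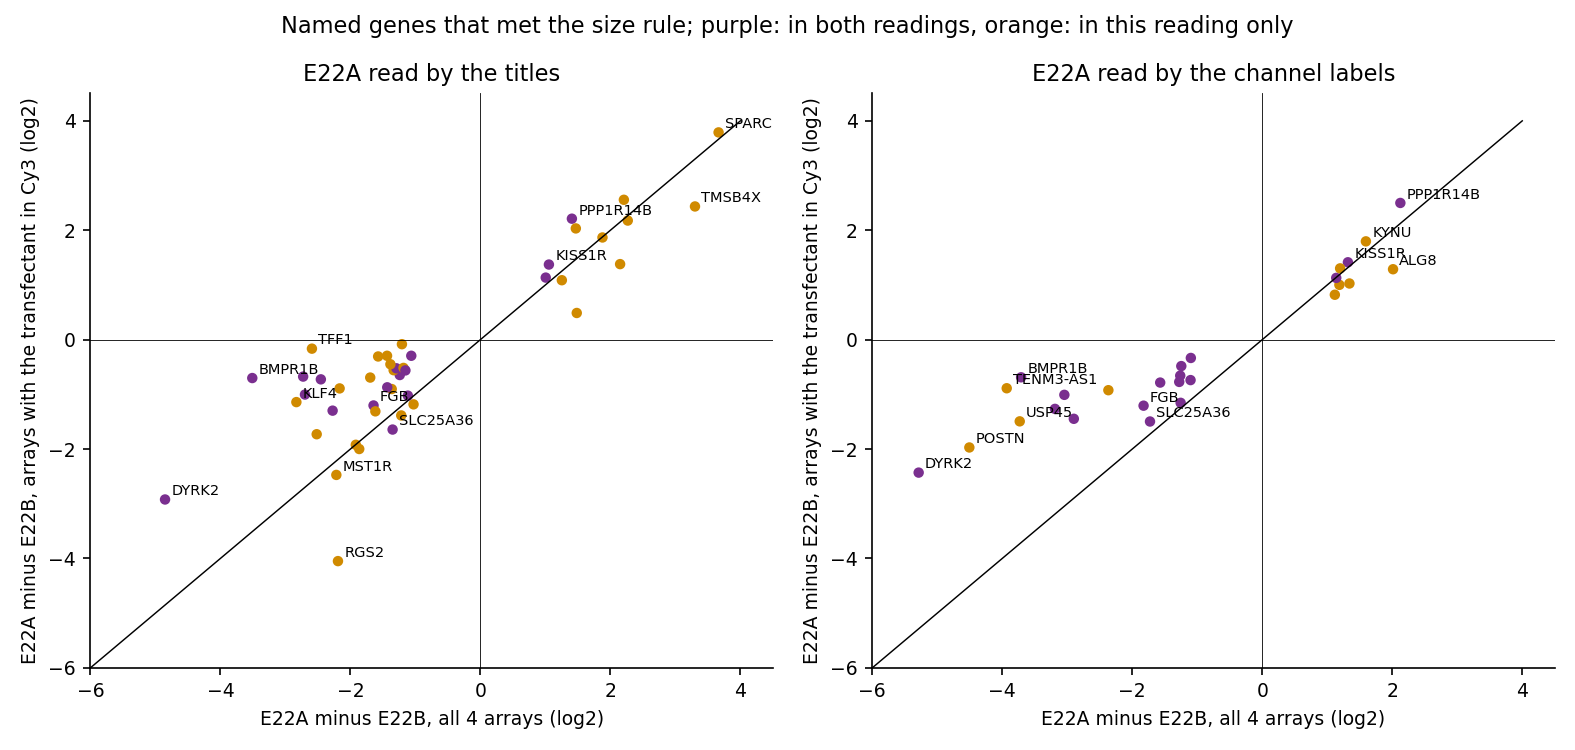
Difference E22A minus E22B (log2) over the arrays with the transfectant in Cy3 (vertical axis) against the difference over all 4 arrays (horizontal axis) for the named genes that met the size rule, by reading, with the line of equal values. LTBP4 stays near the diagonal in both panels, PPP1R14B rises from 1.41 to 2.21 by the titles, and BMPR1B moves from -3.71 to -0.69 by the channel labels.

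The lower counts of the channel-label reading leaned on 1 array. Of its 94 features lower in E22A, 74 were at 2-fold or more on E22B array 2 and 15 on E22B array 1, and 39 were at 2-fold on array 2 while under 0.5 on array 1. Over all features, 3.04% were at 2-fold on E22B array 2 and 2.52% on E22B array 1. The shares were 2.1% on E22A array 1 and 2.09% on E22A array 2. E22B array 2 was one-sided at 2-fold, with 216 features positive and 47 negative. Whether this skew accounts for the excess of features lower in E22A was not tested. By the titles, 99 of 146 features were at 2-fold on E22B array 1, 68 on E22B array 2, 50 on E22A array 1 and 14 on E22A array 2. The transfectants lay on opposite sides of the control on all arrays for 101 of 130 features by the channel labels and for 33 of 146 by the titles. The share of all features on opposite sides was not counted. The rule asks for a large gap without overlap, so these counts describe the counted features only. A stricter rule, chosen after the data were seen, asked for a gap of 1 log2 unit between the closest arrays of the transfectants. It was met by 8 features by the titles (0.0924%), 2 higher (0.0231%) and 6 lower (0.0693%). In the channel-label reading 40 met it (0.462%), 15 higher (0.173%) and 25 lower (0.289%).

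POSTN, COL1A2, TENM3-AS1 and USP45 were lower in E22A by the channel labels alone. POSTN, which encodes the matrix protein periostin, was -1.70 and -1.20 in E22A and 0.52 and 5.59 in E22B, a difference of -4.51. By the titles it was -2.81, with overlapping arrays. On each E22B array POSTN had a value on 1 spot only. Its duplicate spots on the E22A arrays differed by 0.49 and 0.25, where 95% of clones differed by less than 0.10. COL1A2, a chain of type I collagen, was -0.52 and -0.67 in E22A and 0.32 and 3.21 in E22B, a difference of -2.37. A second COL1A2 clone, read on 1 array of each transfectant, gave 0.43, on the other side of 0. In POSTN and COL1A2 alike, E22B array 2 lay far above E22B array 1. The same form was seen in TENM3-AS1, an antisense RNA gene (-3.93), and USP45, a ubiquitin-specific protease (-3.73), whose duplicate spots on E22B array 2 differed by 2.37. Without E22B array 2 the differences were -1.97 for POSTN, -1.49 for USP45, -0.92 for COL1A2 and -0.89 for TENM3-AS1, the last pair under the limit.

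ALG8, KYNU, VPS28, KIAA1958, HOXD12 and HERPUD1 were higher in E22A by the channel labels alone. ALG8, a glucosyltransferase that builds the N-glycan precursor, was 1.17 and 1.04 in E22A and -0.18 and -1.63 in E22B, a difference of 2.01. KYNU, kynureninase of the tryptophan pathway, was 0.67 and 0.12 in E22A and -1.40 and -0.998 in E22B, a difference of 1.59. VPS28, a subunit of an endosomal sorting complex, was 0.83 and 1.15 in E22A and -0.31 and -0.10 in E22B, a difference of 1.20. In these 3 genes each E22A array was above 0 and each E22B array below. The same was true of KIAA1958 (1.34) and the homeobox gene HOXD12 (1.19). HERPUD1, a gene of the unfolded protein response, was above 0 in both, at 2.40 and 1.89 in E22A and at 1.32 and 0.73 in E22B, a difference of 1.12. In the title reading HERPUD1 was -1.28, on the other side and with overlapping arrays. By the titles the differences of ALG8, KYNU and VPS28 were 0.85, 0.93 and 0.37, and none of them met the rule.

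The differences counted by the titles alone rest on the sign of E22A array 1. SPARC, a matricellular glycoprotein, was 3.43 and 0.25 in E22A and -3.54 and -0.11 in E22B, a difference of 3.66. In the channel-label reading array 1 is -3.43, beside -3.54 on E22B array 1, and the difference was 0.24. Both SPARC clones gave the same side by the titles, at 3.24 and 4.09. TMSB4X, an actin-sequestering thymosin, was 2.81 and -0.22 in E22A and -2.65 and -1.36 in E22B. Its difference was 3.30 by the titles and 0.50 in the channel-label reading. Other genes higher in E22A in this reading were SCN9A (2.27), GNG11 (2.21), TMSB4Y (2.15), GABBR2 (1.88), SH3KBP1 (1.48), TUBA8 (1.47) and COL15A1 (1.25). None of these 9 genes differed by more than 0.50 in the channel-label reading. TMSB4X and TMSB4Y are near-identical copies, and their clones may read the same transcript. The symbol TMSB4Y was absent from the dog gene symbols looked up, as were DLEU2 and TENM3-AS1. TMSB4Y is therefore not counted on as a separate dog gene.

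Of the genes lower in E22A by the titles, KLF4, a zinc finger factor of epithelial differentiation, was -2.48 and 1.70 in E22A and 2.85 and 2.04 in E22B. Its difference was -2.83 by the titles and -0.35 in the channel-label reading. TFF1, a secreted trefoil peptide, gave -2.59 and -0.34, and DSP, the desmosomal protein desmoplakin, -1.44 and -0.27. For both, all 4 arrays are above 0 by the channel labels. LRATD2 (-2.52), the receptor tyrosine kinase MST1R (-2.22), RGS2 (-2.19) and VEGFC (-2.17) followed by the titles. By the channel labels they gave -0.33, -0.48, -0.80 and 0.39, so VEGFC changed sign. The measured clones of MST1R gave -2.41 and -2.02 by the titles and those of RGS2 gave -2.40 and -1.98. The clones of each gene lay on the same side but were read on the same arrays, and the E22B arrays differed. RGS2 was 2.37 and -1.05 in E22B, and MST1R was 2.30 and 0.22. Without E22B array 1 the title difference was -0.48 for RGS2 and -1.18 for MST1R.

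MMP14, a membrane-bound matrix metalloprotease, was lower in E22A on all arrays by the titles, at -0.88 and -0.36 against 1.64 and 0.85 in E22B. The difference was -1.86 by the titles and -0.98 in the channel-label reading, just outside the limit and with overlapping arrays. Others lower in E22A in the title reading were MTHFD2 (-1.92) and ASNS (-1.70) of folate and asparagine metabolism, the growth factor VEGFA (-1.62), the peptidase DPP4 (-1.57), KLF8 (-1.38), the kinase PLK2 (-1.36) and BTG1 (-1.33). PSMB6 of the proteasome (-1.22), the ribosomal protein gene RPL10 (-1.21), IDO1 of tryptophan catabolism (-1.18) and the phosphatase subunit PPP2CA (-1.03) were also among the 72 named genes counted as lower in this reading. The 4 PPP2CA clones were all below 0, from -1.73 to -0.15. Each of these genes was closer to 0 by the channel labels, as for ASNS at -0.15 and IDO1 at -0.47.

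**Figure D4:**
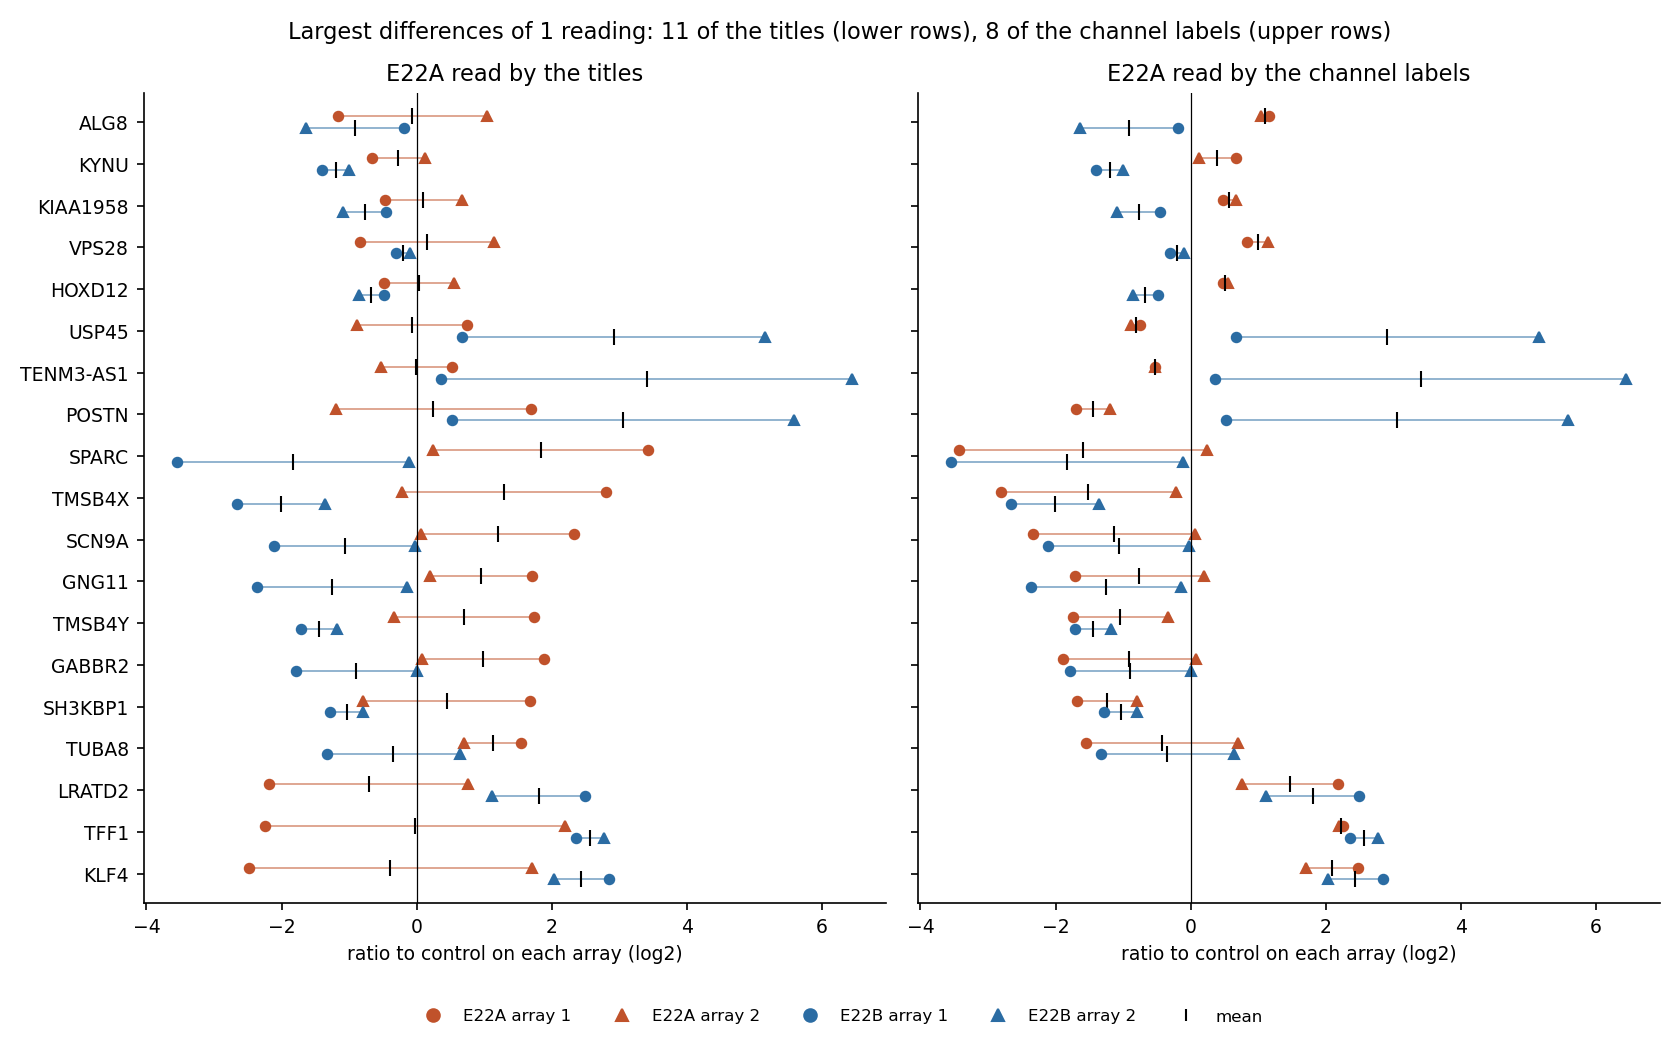
Log2 ratio to the control on each array, with the means as ticks, for genes with the largest differences of 1 reading alone, with channel-label genes in the upper rows and title genes in the lower rows. For SPARC, TMSB4X and KLF4 the transfectants part in the title panel and overlap in the channel-label panel, and for ALG8 and POSTN the reverse is seen.

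None of the factors and targets checked here because the study turns on them met the size rule in either reading. CDH1 was 1.08 and 0.79 in E22B and 1.13 on E22A array 2, with 0.90 in size on E22A array 1. Its difference was -0.82 by the titles and 0.08 in the channel-label reading, and it met the rule in neither. A second CDH1 clone with a value on 3 arrays gave -5.67 by the titles and 1.05 in the channel-label reading, on opposite sides. FN1, the mesenchymal matrix protein fibronectin, was -2.08 and -1.36 in E22B and -1.89 on E22A array 2, with 2.68 in size on array 1. Its difference was 2.12 by the titles, with overlapping arrays, and -0.56 by the channel labels. In both genes E22A array 2, whose dye is not in doubt, lay on the same side of 0 as the E22B arrays.

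TCF4 itself differed by 0.05 by the titles and -0.22 in the channel-label reading. Its probes are human, and whether they read the introduced E2-2 was not tested. TCF3, the gene of the related factors E12 and E47, differed by 0.44 and 0.35, with both E22B arrays below both E22A arrays. The Id genes ID1, ID2 and ID3 gave 0.45, 0.57 and 0.61 by the titles and 0.16, 0.01 and 0.03 by the channel labels. CDH2, which encodes N-cadherin, gave 0.93 and 0.51, and the repressor ZEB1 0.24 and -0.06.

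Of the 741 genes in 30 lists, 429 were measured on all arrays. In the title reading 26 of the 429 met the size rule (6.06%), beside 1.86% of all features with a symbol, and by the channel labels 8 did (1.86%), beside 1.08%. The lists were chosen with earlier results of these data known, so these shares are a description. Cell cycle and DNA replication genes had medians of -0.05 by the titles and -0.21 in the channel-label reading over 33 genes. Of these 18 and 29 were below 0, beside 51.8% and 52.2% of all features, and none met the rule. MAD2L1, a spindle checkpoint protein, stood just under the limit in both readings and was picked out after its value was seen. It was 1.16 and 1.06 in E22B and 0.34 on E22A array 2, with 0.02 in size on array 1, and differed by -0.93 and -0.95. The list's median was 0.10 by the titles at the matched dye, so its sign was not the same in every setting.

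Immediate early genes had medians of -0.25 and -0.31, with 11 of 15 below 0 in both readings and FOS as the gene counted in both. Protein phosphatases and their inhibitors had medians of -0.20 and -0.11, with 20 and 17 of 24 below 0, while PPP1R14B stood on the other side. Oxidative phosphorylation genes had medians of 0.17 and 0.19, with 9 and 10 of 14 above 0 and none counted. Amino acid supply genes had medians of -0.49 and -0.19, with 7 and 6 of 7 below 0 and ASNS and MTHFD2 counted by the titles.

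Among the epithelial lists, adherens and desmosomal junction genes had medians of -0.28 and -0.09 over 15 genes, with DSP counted by the titles. Tight junction, gap junction and polarity genes gave -0.13 and -0.14 over 8 genes, with none counted. Keratins and epithelial differentiation genes changed sign with the reading, at -0.09 and 0.16 over 11 genes, with 1 counted higher and 4 lower by the titles and none by the channel labels. KRT7, a keratin of simple epithelia, was the higher one (1.45), and KRT14, a keratin of basal cells, was lower (-1.53) beside KLF4, TFF1 and DPP4. Both keratins were named after their values were seen. Mesenchymal and cytoskeletal markers gave 0.46 and 0.10 over 15 genes, with SPARC and TMSB4X counted by the titles. ENG, a TGF-beta co-receptor in that list, was picked out after its value was seen. It was -0.99 and -0.80 in E22B and -0.14 on E22A array 2, and differed by 0.78 by the titles and 0.87 in the channel-label reading.

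Lists around the cell surface and matrix had medians of at most 0.19 in size. Extracellular matrix genes gave 0.05 and 0.08 over 18 genes. Of these COL15A1 was counted higher by the titles, and POSTN and COL1A2 lower by the channel labels. Integrins and matrix receptors gave 0.19 and 0.05 over 13, with 10 and 9 above 0 and none counted. At the matched dye their medians were 0.34 and 0.26. Extracellular proteases and inhibitors gave 0.16 and 0.08 over 14, with MMP14 counted lower by the titles. In signalling, TGF-beta and BMP genes gave 0.26 and -0.01 over 18 genes, with BMPR1B counted in both readings. Transcription factors of the bHLH, Id and EMT list gave 0.22 and 0.01 over 13 genes. WNT and Notch genes gave 0.06 and 0.00 over 15 genes, growth factors and their receptors -0.01 and 0.08 over 24, and cytokines and chemokines -0.07 and -0.01 over 18.

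Cytosolic ribosomal protein genes changed sign with the reading, at -0.20 by the titles and 0.31 in the channel-label reading over 16 genes. Heat shock and unfolded protein response genes also changed sign, at -0.22 and 0.02 over 16 genes. Cell cycle inhibitors and p53 targets gave -0.30 and -0.07 over 18 genes, apoptosis genes -0.01 and 0.08 over 16, and interferon response genes -0.05 and -0.03 over 20. Glycolysis and hypoxia genes gave -0.02 and -0.10 over 16, proteasome and ubiquitin genes -0.02 and -0.07 over 26, and N-glycosylation genes -0.06 and 0.00 over 10. The 3 tryptophan catabolism genes gave -0.15 and -0.34, with KYNU and IDO1 on opposite sides.

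Markers of cell types were read as ratios, which show no level. Kidney tubule epithelium markers gave medians of -0.03 and 0.08 over 7 genes, endothelial markers 0.01 and 0.12 over 4, and leukocyte markers 0.04 and -0.03 over 6. Fibroblast markers gave -0.31 and -0.01 over 5 genes, with COL1A2 counted by the channel labels.

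**Figure D5:**
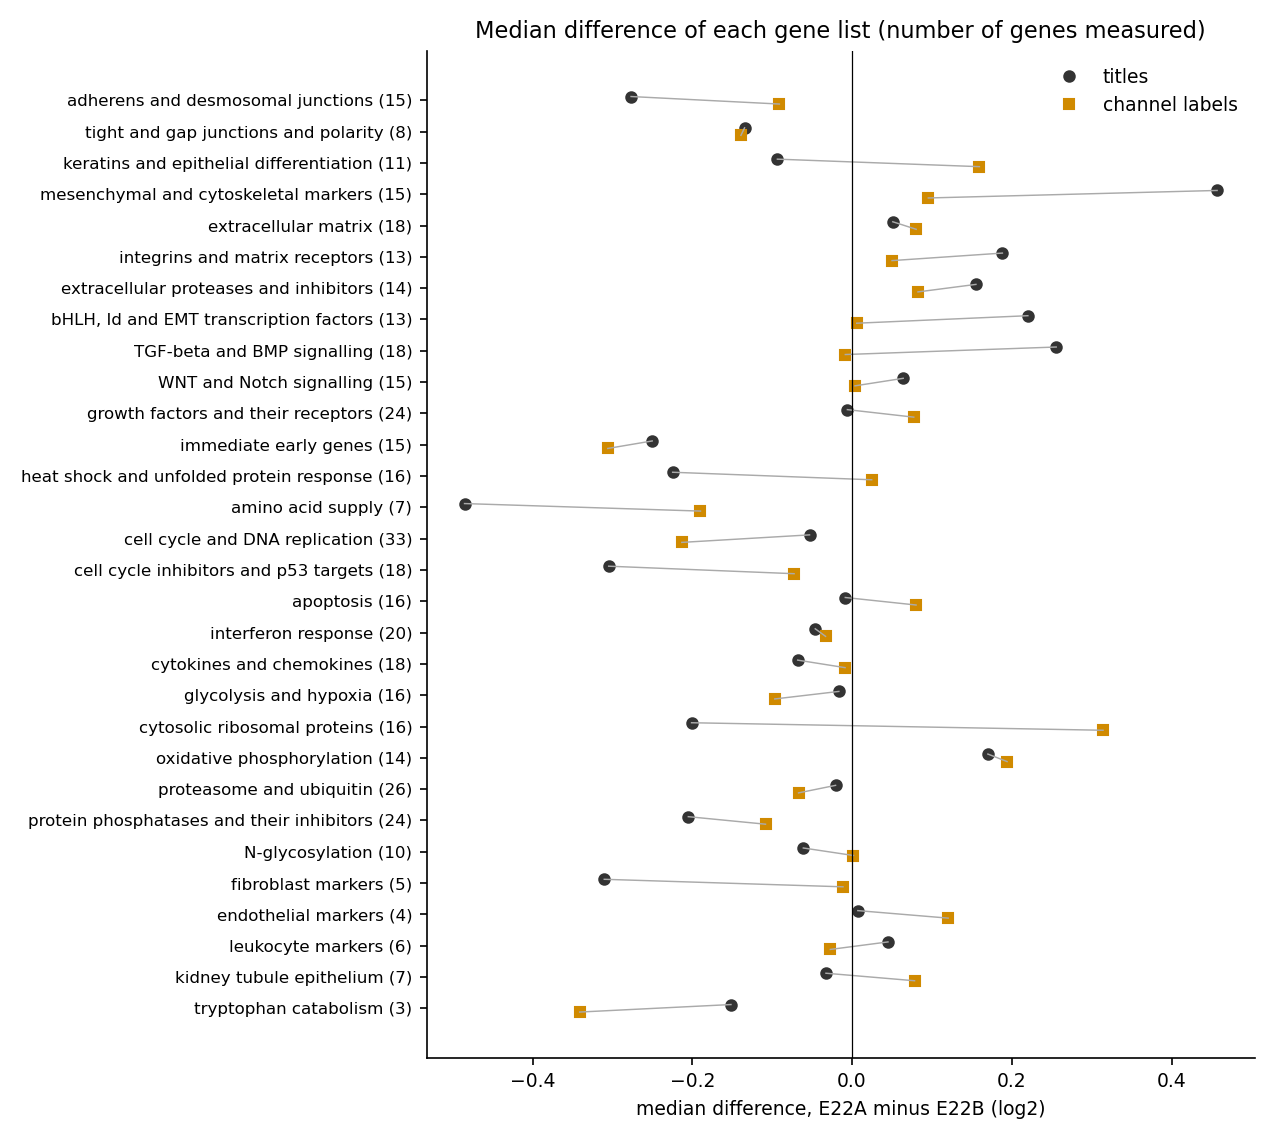
Median difference E22A minus E22B (log2) of each of the 30 lists in the title reading (circles) and the channel-label reading (squares), with the number of genes measured in brackets. The ribosomal protein list moves from a median of -0.20 by the titles to 0.31 by the channel labels, whereas oxidative phosphorylation stays at 0.17 and 0.19.

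The clones of a gene were also set beside each other, for 1207 genes with several clones. By the titles 15 such genes met the size rule, and in all 15 every clone lay on the same side, with every clone counted in 8. In the channel-label reading 3 such genes met it, with every clone on the same side in 1. Among genes with at least 1 clone counted, 12 of 48 by the titles and 11 of 17 by the channel labels had clones on both sides of 0. The 15 and 3 genes were counted on the mean of their clones, where clones on opposite sides tend to cancel. The clones of a gene also share the arrays and the doubtful dye of E22A array 1. Clones on the same side therefore cannot serve as a check of the counted genes.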

How the data were processed

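The authors deposited a log2 ratio of the 2 dyes for each spot and array. Base 2 is an assumption, since no header or label states it. The sources used here do not state the image analysis, background correction or normalisation. The deposited medians lay between -0.0099 and 0.0029. Values of a clone's duplicate spots were averaged, arrays were centred on the median and turned by dye, and clones with 1 symbol were averaged by gene with Python 3.11.15, pandas 2.3.3 and numpy 2.4.6. Of the clones, 8744 had 1 symbol in the platform annotation, 327 had several and 4753 had none. Of the 4892 features with a symbol, 4459 had a symbol that is also a dog gene symbol. Of the 27648 spots, 22360 to 23136 had a value on each array. Duplicate spots correlated at 0.90 to 0.98. Depth in reads does not apply to arrays, whose number limits the precision. The computation was tested on simulated data.

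Members and lists were chosen with earlier results of these data known. Named genes are those that met the size rule in both readings, the 8 with the largest difference of each sign in each reading, up to 3 members per list that met the rule in either reading, and 9 check genes. MAD2L1, ENG, KRT7, KRT14, ADAMTS3 and SEMA3A were added after their values were seen. Alternatives changed the centring, scaling, clone averaging, missing values, limit, overlap, dye reading and arrays.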

Additional observations from a re-analysis of the deposited data

Results flagged for a closer look

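These differences between E22A and E22B were picked out because every array of E22A lay on one side of the control and every array of E22B on the other. None of them was tested, and how common such opposite sides are among all features was not counted. By the titles these were SPARC (3.66), SCN9A (2.27), GNG11 (2.21), PPP2CA (-1.03), MMP14 (-1.86), VEGFC (-2.17) and MST1R (-2.22). Some single arrays lay close to the control, where the side means little. VEGFC was -0.0024 on E22A array 2. On array 2 of E22A and of E22B, SCN9A was 0.07 and -0.02, GNG11 0.19 and -0.15, and SPARC 0.25 and -0.11.

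By the channel labels, the genes higher in E22A were PPP1R14B (2.12), ALG8 (2.01), KYNU (1.59), KIAA1958 (1.34), KISS1R (1.32), VPS28 (1.20), HOXD12 (1.19) and LTBP4 (1.14). Those lower in E22A were DYRK2 (-5.29), POSTN (-4.51), TENM3-AS1 (-3.93), USP45 (-3.73), BMPR1B (-3.71), DNA2 (-3.04) and PUM2 (-2.90). COL1A2 (-2.37), FGB (-1.83), SLC25A36 (-1.73), SMC2 (-1.57), ZNF346 (-1.28) and TCAIM (-1.25) followed. Here too some arrays lay close to the control, such as DNA2 at -0.02 on E22A array 2. Without E22B array 2, COL1A2 was -0.92, TENM3-AS1 -0.89 and BMPR1B -0.69. KRT7 by the titles (1.45) and ADAMTS3 (-1.65) and SEMA3A (-1.41) by the channel labels, named after their values were seen, also lay on opposite sides of the control on all arrays.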

How the results depend on the processing

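The main counts were 146 features by the titles, 130 by the channel labels and 49 in both. They stayed within 1.5 times without centring, with arrays scaled alike, with each clone on its own, with missing values allowed and with both duplicate spots required. A limit of 1.5 log2 units gave 52, 53 and 18. With overlap allowed the titles gave 257 and both readings 75. The Cy3 arrays gave 339 by the titles and 130 in both. Turning the E22A pair gave 475 by the channel labels and 142 in both. Values read as channel 2 over channel 1 gave 198 by the titles, by the channel labels and in both. That setting fixes the signs without either reading, so its counts are equal by construction. The gap rule, chosen after the data were seen, gave 8, 40 and 4. The causes were not tested beyond the construction of each setting. Leaving out 1 array gave 196 to 562 by the titles, 148 to 268 by the channel labels and 40 to 196 in both. Without E22B array 2 the counts were 354, 148 and 87, and without E22B array 1 they were 213, 268 and 125. Without E22A array 1 each count was 196 by construction, since the readings differ only on that array. Without E22A array 2 the counts were 562, 217 and 40.

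With the E22A pair turned, the channel-label differences of ALG8 (-0.19), HERPUD1 (-3.17) and VPS28 (-0.79) reversed. So did the title differences of GABBR2 (-0.090), RGS2 (0.88), SCN9A (-0.14), SPARC (-0.0076), TUBA8 (-0.78) and VEGFC (0.39), with the same values under channel 2 over channel 1. HERPUD1 reversed there by the channel labels (-0.77). Of 1396 differences of named genes over all settings, 109 changed sign, 16 of them where the difference had met the size rule and 93 where it had not. The 6 title reversals enter the 16 under both settings, which are the same for the titles. With 1 array left out 54 changed sign, such as HERPUD1 by the titles, from -3.43 to 0.86, and VPS28, from -0.63 to 1.36. Of 660 list medians over the settings, 211 moved by at least the SD of that list's medians over the arrays, and 449 did not. No paired analysis was possible because the labels give the arrays no shared numbers and no result comes from a test. Signal over background was not used here, so dim probes could not be set apart.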

Other observations

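Of the clones without a value on all arrays, 224 had a value on both E22A arrays and none on E22B, and 110 the other way round. E22A array 2 alone lacked a value for 899 clones, E22B array 2 alone for 223, E22A array 1 alone for 81 and E22B array 1 alone for 10, while 1102 clones had no value on any array. ADAMTS3, a procollagen-processing protease, and SEMA3A, an axon guidance ligand, were looked at after their values were seen. By the channel labels ADAMTS3 was -0.77 and -0.34 in E22A against 1.05 and 1.14 in E22B, a difference of -1.65. SEMA3A gave -1.41 by the channel labels. By the titles the differences were -0.88 for ADAMTS3 and -0.53 for SEMA3A, and neither met the size rule.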
